A study of Mus musculus with 6 samples.

Results

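The genes described are the nuclear-encoded subunits of the mitochondrial respiratory chain and ATP synthase, measured by RNA-Seq in the LT-HSCs of Foxm1 HET mice and their WT controls. They were chosen by gene symbol from the 12179 genes of the normalized table: symbols beginning with Nduf, Uqcr, Cox4i, Cox5, Cox6, Cox7, Cox8 or Atp5, together with Sdha to Sdhd, Cyc1 and Cox15. This gave 85 genes: 35 subunits of complex I, 7 complex I assembly factors, 3 genes of complex II, 8 of complex III, 14 of complex IV, 15 of ATP synthase (complex V), Atp5s and Atp5sl, which are not counted among the subunits here, and the pseudogene Atp5c1-ps. LT-HSCs were sorted from BM as CD150+CD48-LSK cells, and each genotype had 3 libraries from C57BL/6 mice at 8 weeks of age. The Foxm1 HET libraries are labelled as Foxm1 heterozygous, and their titles name the floxed allele (FoxM1flPlus) without a Cre driver. The study applies the name Foxm1 HET to Tie2-Cre mice in another experiment and also used Mx1-Cre, but for these libraries neither the labels nor the RNA-Seq methods name the driver. Tie2-Cre is known to act in endothelial and hematopoietic cells. Foxm1, the forkhead transcription factor targeted in the HET mice, had 1182, 2615 and 2942 reads (WT) against 659, 5 and 742 (Foxm1 HET). The genotypes did not overlap in Foxm1 reads, but edgeR's quasi-likelihood test did not call the gene (log2 fold change -3.30, SE 2.33, adjusted p = 0.961). The comparison asks what losing 1 Foxm1 copy changes in LT-HSC expression. Throughout, values are given in the order of WT replicates 1, 2 and 3, then Foxm1 HET replicates 1, 2 and 3.

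Oxidative phosphorylation passes electrons from NADH (complex I) and succinate (complex II) through complex III and cytochrome c to oxygen at complex IV, and the proton gradient built on the way drives ATP synthase. Most subunits are encoded in the nucleus and imported, while a small set of core subunits is encoded by mitochondrial DNA. Quiescent HSCs are known to rely largely on glycolysis and to raise oxidative phosphorylation when they leave quiescence. Nuclear respiratory factor 1 (NRF1) and the ETS-family factor GABPA are known regulators of many of these genes.

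Promoter sites of single genes are shown because NRF1 and GABPA are the regulators best known for this family. A RefSeq window (GRCm38.p6, from 250 bases before to 50 after the gene start) was matched for 70 of the 85 genes. The NRF1 core GCGCATGCG was present on either strand in 9 of the 70 (12.86%), against 4.256% of the 9327 normalized-table genes with a window and 1.95% of all 27025 genes. The lines below give matches in 6 of these genes, 5′ to 3′ on the gene's strand, with the match in capitals. They lie at chr15:102671071-102671099 (Atp5g2), chr5:108434431-108434459 (Atp5k), chr5:115349102-115349130 (Cox6a1), chr9:108936668-108936696 (Uqcrc1), chr4:24897960-24897988 (Ndufaf4) and chr17:56717692-56717720 (Ndufa11), on the minus strand for the first 3 and the plus strand for the others.
Atp5g2: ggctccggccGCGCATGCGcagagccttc
Atp5k: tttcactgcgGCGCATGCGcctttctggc
Cox6a1: caggaacgggGCGCATGCGcgctctcgct
Uqcrc1: actccgctctGCGCATGCGcagcgcggct
Ndufaf4: ccagatgtctGCGCATGCGcctgtgcgga
Ndufa11: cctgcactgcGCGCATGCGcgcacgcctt

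The ETS motif CCGGAAGT was found in 5 of the 70 windows (7.143%), against 9.253% of the normalized-table genes and 4.307% of all genes. Cox15 was the single respiratory gene that edgeR called between the genotypes in the main comparison. The 3 ETS matches below are from Cox15 and from Uqcrh and Atp5h, whose levels are described with their complexes. They lie on the minus strand at chr19:43752976-43753003, chr4:116075064-116075091 and chr11:115419941-115419968. The capitals mark the motif in Cox15 and its reverse complement in the other two.
Cox15: gacgcctgacCCGGAAGTgcttgttctt
Uqcrh: agtatgccgcACTTCCGGccaggtcgcc
Atp5h: caaggagagaACTTCCGGcaactctctt

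The forkhead core GTAAACA was found in 2 of the 70 windows (2.857%, in Ndufaf1 and Atp5sl), against 3.163% of the normalized-table genes and 4.052% of all genes. No matches of different motifs overlapped in these windows. A match says only that the letters are present.

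Detection of the family varied most among the Foxm1 HET libraries. At least 10 reads were counted for 45, 42 and 43 of the 85 genes (WT) against 65, 25 and 67 (Foxm1 HET). Foxm1 HET replicate 2 thus lay below every WT library, and the other Foxm1 HET libraries lay above them. The same order held for the normalized-table genes as a whole, of which 48.61% to 63.83% reached this count across WT against 79.16%, 36.41% and 75.83% across Foxm1 HET. Library totals ran from 14573002 counted reads in Foxm1 HET replicate 2 to 25798509 in Foxm1 HET replicate 3. The TMM factors, which scale the libraries for the test, ran from 0.453 in Foxm1 HET replicate 2 to 1.67 in Foxm1 HET replicate 3.

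**Figure D1:**
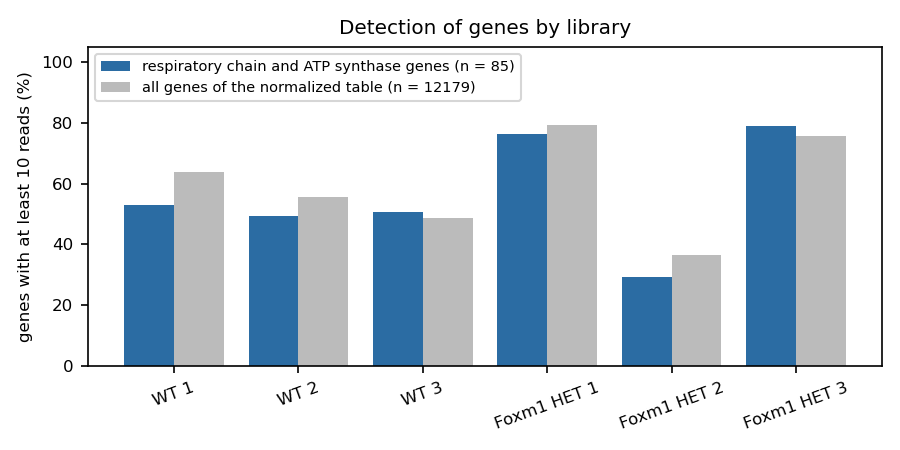
Bars give the percentage of genes with at least 10 reads in each of the 6 libraries, in blue for the 85 respiratory chain and ATP synthase genes and in grey for the 12179 genes of the normalized table. Foxm1 HET replicate 2 is lowest in both (29.41% and 36.41%), and Foxm1 HET replicates 1 and 3 are highest.

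Together the 85 genes took between 0.228% and 0.404% of the counted reads of a library. Their summed level (TPM, a length-scaled share of all transcripts, from the counts and the deposited gene lengths) was 4027, 3856 and 5351 (WT) against 3923, 3908 and 7119 (Foxm1 HET). The sums of the genotypes overlapped. Atp5b, the catalytic beta subunit of ATP synthase, was the most counted of the genes in 5 of the 6 libraries, while in Foxm1 HET replicate 2 Cox15 alone held 49.64% of the reads of the family. In bulk libraries, fewer cells of a type and less RNA per cell cannot be told apart.

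Detection was uneven from gene to gene as well. Only 8 of the 85 genes reached 10 reads in all 6 libraries, 16 did so in a single library and 13 in 2. The genes are short, with a median length of 758 bases against 2769 for the normalized table, and 62.35% of them are under 1000 bases against 10.53%. Of the 53 shorter than 1000 bases, 32 reached 10 reads in 3 or more libraries, as did 24 of the 32 longer ones. Among normalized-table genes the shares were 40.22% for those under 1000 bases and 70.53% for the longer ones. The part of length in the genotype comparison was not tested.

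**Figure D2:**
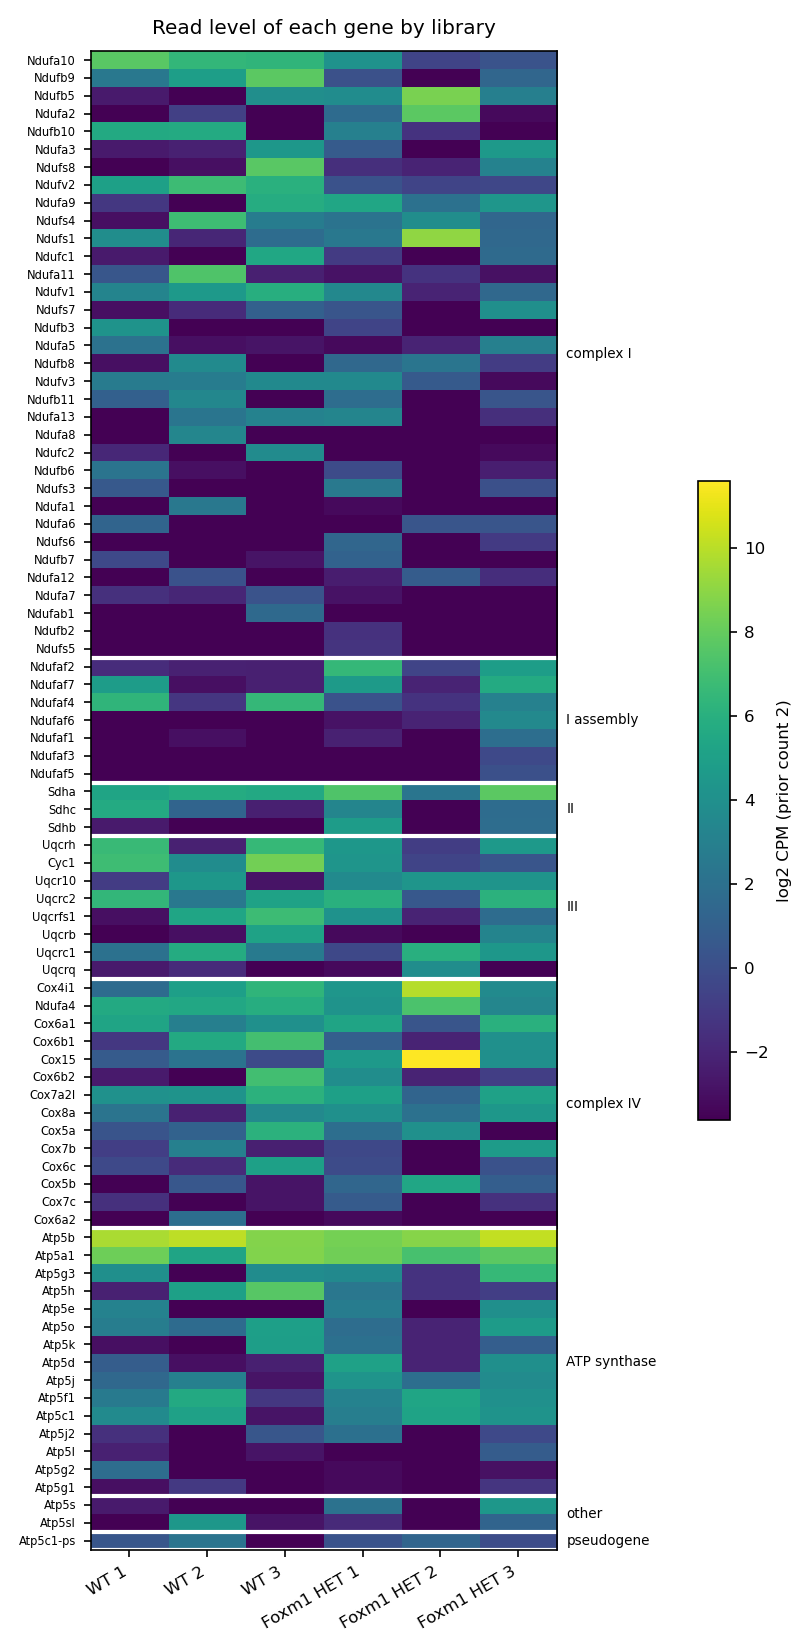
Each row is one of 84 of the 85 genes, grouped by complex and ordered within it by mean TPM, and each column is a library; colour gives log2 CPM (prior count 2) on the TMM scale, from dark (no reads) to yellow. Atp5b and Atp5a1 are bright in every library, whereas most other rows are bright in some libraries and dark in others of the same genotype.

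The genotype comparison was fitted on all genes and 55 of the 85 genes passed the filter on low counts. One of these, Cox15, had an adjusted p below 0.05 (1.82% of those tested), against 27 of all 8195 genes tested (0.329%). Without adjustment, 3 genes were higher in Foxm1 HET LT-HSCs (Cox15, Ndufa2 and Ndufs1, 5.45%, against 3.44% of all genes tested) and 2 were lower (Ndufv2 and Ndufb9, 3.64%, against 2.59%). This split moved with the settings, to 1 higher and 6 lower by DESeq2 and to 4 higher and 0 lower by edgeR with upper-quartile scaling. The DESeq2 split is not over the same genes. DESeq2 gave no adjusted p for Cox15, Ndufa2 or Ndufs1, though its log2 fold changes for them were 9.865, 9.706 and 5.994. The median log2 fold change was -0.18 over the tested genes and -0.26 over all genes tested, and 27 of the 55 lay above 0 (49.1%, against 45.4% of all genes tested). The median SE of these log2 fold changes was 2.86, so that a gene had to differ many-fold to pass. DESeq2 gave an adjusted p for 39 of the genes and called 2 of them (5.13%), Ndufv2 and Ndufb9, against 194 of the 6195 genes to which it gave one (3.13%). It gave none for Cox15, so the 2 tests could not be compared on the call of that gene, and the reason was not tested. The called genes were 1 higher by edgeR and 2 lower by DESeq2, and each had the same sign in both tests.

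**Figure D3:**
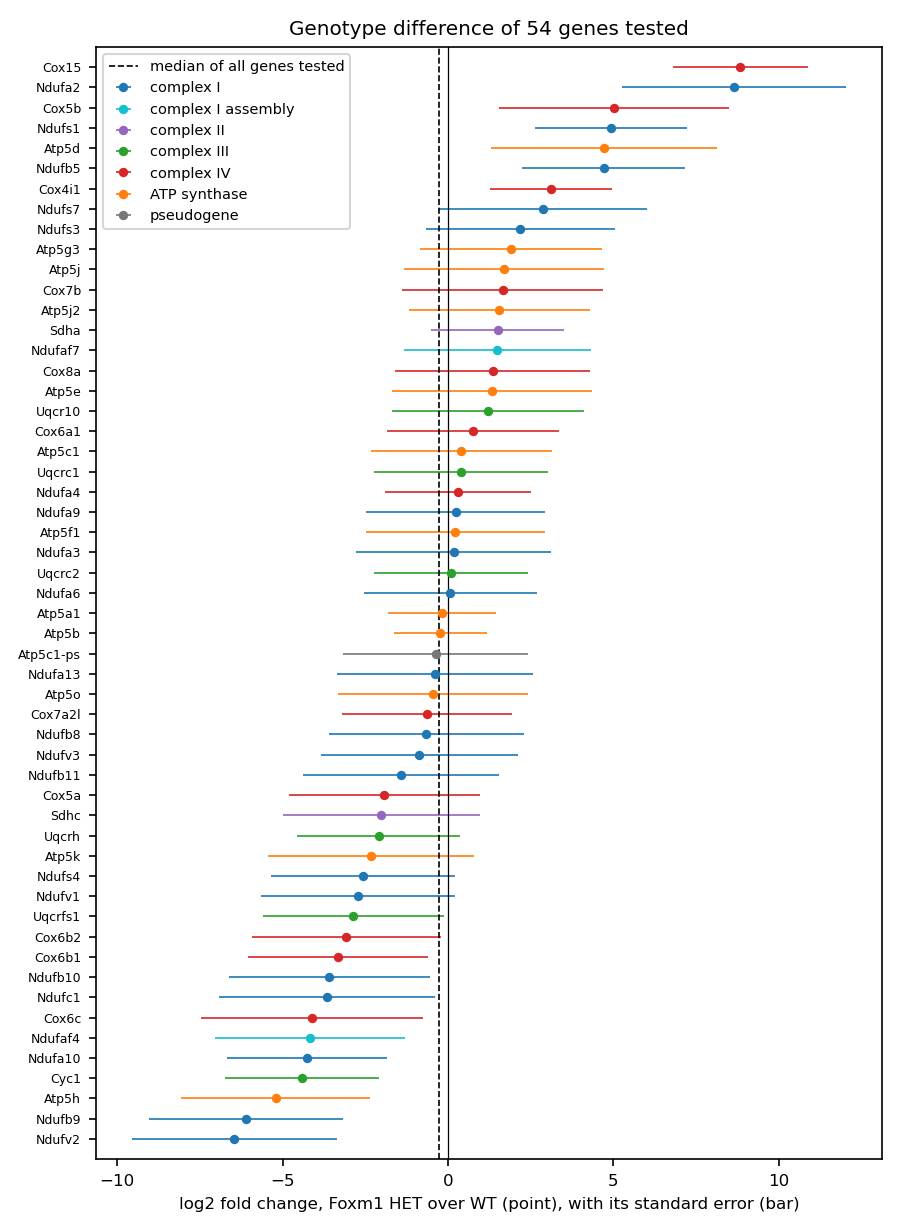
Points give edgeR's log2 fold change of Foxm1 HET over WT for 54 of the 55 genes tested, coloured by complex, with bars of 1 standard error; the dashed line is the median of all 8195 genes tested (-0.26). Values run from -6.47 for Ndufv2 to 8.84 for Cox15 without a separation of complexes, and most bars cross 0.

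Libraries of the same genotype differed widely for single genes. In 48 of the 55 tested genes (87.27%) the highest and lowest library differed more than 100-fold in reads plus 1, against 76.46% of all genes tested. Such a gap was present between WT libraries for 24 of them and between Foxm1 HET libraries for 31. Over the 55 genes, which are not independent replicates, the Pearson correlation of log2 CPM between 2 libraries ran from 0.01 (WT replicate 3 with Foxm1 HET replicate 2) to 0.496 (Foxm1 HET replicates 1 and 3).

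Complex IV, cytochrome c oxidase, held the gene called by edgeR. Cox15 (gene 226139, chr19:43733254-43753000, minus strand, GRCm38) encodes the enzyme that makes heme A for complex IV and is an assembly enzyme, not a subunit. It had 36, 100 and 13 reads (WT) against 950, 20183 and 657 (Foxm1 HET). Every Foxm1 HET library was above every WT library, and Foxm1 HET replicate 2 stood far above the rest. The log2 fold change was 8.84 (SE 2.05, edgeR adjusted p = 0.00953). Mean log2 CPM was 0.93 ± 1.17 in WT and 6.74 ± 4.22 in Foxm1 HET (SD, n = 3). Without Foxm1 HET replicate 2 the log2 fold change was 3.20 and the adjusted p 0.9999, and without any one WT library the adjusted p ran from 0.173 to 0.219. Over 12.5% of its exon bases Cox15 overlaps Entpd7, a nucleotide phosphatase gene on the other strand, which had 935, 2, 2810, 832, 3 and 660 reads. Entpd7 was thus near 0 in the library where Cox15 was highest. How strand was counted is not given, and the part of the overlap in the reads of either gene was not tested.

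Of the 12 complex IV genes tested, Cox15 included, 7 lay above 0 and 5 below, with a median log2 fold change of 0.53. Cox4i1, the ubiquitous isoform of a nuclear regulatory subunit, was the second most abundant of the 85 genes by mean TPM (313) and had 71, 721, 1318, 807, 6356 and 521 reads (log2 fold change 3.11, SE 1.83, edgeR adjusted p = 0.923). Its WT and Foxm1 HET values overlapped, and without Foxm1 HET replicate 2 the fold change was -1.15, the mean 93.7 TPM and the rank 14. Cox5b, a zinc-binding subunit, had 0, 31 and 1 reads (WT) against 97, 276 and 75 (Foxm1 HET). As for Cox15, every Foxm1 HET library was above every WT library and replicate 2 was highest, but the difference did not pass the test (log2 fold change 5.01, SE 3.48, edgeR adjusted p = 0.959). Ndufa4, named for complex I but now placed in complex IV, varied little in WT, with 1076, 1025 and 921 reads against 686, 1025 and 421 (log2 fold change 0.30, SE 2.21). This small positive value reversed under library-size scaling (-0.31). Cox7a2l, a factor that joins complexes III and IV into supercomplexes, had 376, 423, 1165, 1263, 15 and 1434 reads (log2 fold change -0.64, SE 2.56), with Foxm1 HET replicate 2 alone low.

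Isoforms of complex IV subunits differed in detection. Cox6a1, the broadly expressed isoform, had 847, 172, 254, 1447, 8 and 2746 reads, whereas Cox6a2, the heart and muscle isoform, had 83 reads in WT replicate 2 and at most 1 in any other library. Cox6b1 had 8, 1110, 2086, 73, 1 and 667 reads. Cox6b2, known as the testis isoform, had 2044 reads in WT replicate 3 and 551 in Foxm1 HET replicate 1, with 21 or fewer in the others. Neither Cox6b gene separated the genotypes. Cox4i2, the lung isoform of Cox4i1, had no reads in any library, and Cox7a1 and Cox7a2 had at most 3.

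Complex I, the NADH dehydrogenase, had 20 of its 35 subunits tested, 8 above 0 and 12 below, with a median log2 fold change of -0.58. Ndufv2 (gene 72900, chr17:66078795-66101491), an iron-sulfur subunit of the module that takes electrons from NADH, had 710, 2579 and 1076 reads (WT) against 41, 4 and 29 (Foxm1 HET). All Foxm1 HET libraries were below all WT libraries, with a wide gap between them. Mean log2 CPM was 5.97 ± 0.92 in WT and -0.22 ± 0.38 in Foxm1 HET (SD, n = 3). The log2 fold change was -6.47 (SE 3.10), with an unadjusted p of 0.0372 and an adjusted p of 0.773 by edgeR and an adjusted p of 0.00172 by DESeq2. Leaving out each library in turn kept the fold change between -6.74 and -5.98.

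Ndufb9 (gene 66218, chr15:58933810-58939489), an accessory subunit of the membrane arm, had 120, 668 and 3447 reads (WT) against 40, 0 and 106 (Foxm1 HET) (log2 fold change -6.10, SE 2.94, adjusted p = 0.773 by edgeR and 0.0239 by DESeq2). The genotypes did not overlap, but WT replicate 1 lay just above Foxm1 HET replicate 3 in reads. Ndufa10, also an accessory subunit, had 4558, 2005 and 1324 reads (WT) against 678, 4 and 47 (Foxm1 HET) (log2 fold change -4.27, SE 2.42, adjusted p = 0.904 by edgeR and 0.102 by DESeq2). These were the 3 tested genes with every Foxm1 HET library below every WT library (5.45%, against 4.55% of all genes tested). Cox15 and Cox5b were the 2 with the opposite order (3.64%, against 4.12%). As these 5 genes were picked for no overlap on log2 CPM, the exact two-sided permutation test on it had to give p = 0.1. That is the smallest value that 3 libraries against 3 can give, and it adds no evidence here.

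Other complex I subunits were highest in Foxm1 HET replicate 2. Ndufs1, the large iron-sulfur subunit, had 319, 4, 53, 211, 3503 and 115 reads (log2 fold change 4.94, SE 2.30, unadjusted p = 0.0317, edgeR adjusted p = 0.749). Without Foxm1 HET replicate 2 its fold change was -0.47. Ndufa2, an accessory subunit, had 0, 12 and 0 reads (WT) against 120, 1418 and 1 (Foxm1 HET) (log2 fold change 8.65, SE 3.39, unadjusted p = 0.0108, edgeR adjusted p = 0.487), and 3.18 remained without that library. Ndufb5 had 2, 0, 238, 526, 2398 and 322 reads (log2 fold change 4.71, SE 2.46, edgeR adjusted p = 0.853), with a fold change of 1.18 without Foxm1 HET replicate 2 and 11.34 without WT replicate 3. In all 3 genes the WT libraries also disagreed or were near 0.

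The assembly factors of complex I, which act on building the complex and are not part of it, reached 10 reads for 7 of 7 genes in Foxm1 HET replicate 3, for 3 in replicate 1 and for 0 in replicate 2, against 2, 0 and 1 in WT. Ndufaf2 had 5, 3 and 2 reads (WT) against 3511, 4 and 1234 (Foxm1 HET), and Ndufaf6 had 0, 0 and 0 against 2, 1 and 479. In reads the genotypes overlapped for Ndufaf2, with 5 in WT replicate 1 and 4 in Foxm1 HET replicate 2. On log2 CPM, which scales each library, both genes were higher in every Foxm1 HET library than in every WT library. Foxm1 HET replicate 2 held only 4 and 1 reads of them, and the share of untested genes with this order was not computed. Neither was tested, because too few libraries reached the count minimum. Ndufaf4 went the other way, with 1803, 8 and 1491 reads (WT) against 42, 2 and 346 (Foxm1 HET) (log2 fold change -4.17, SE 2.88, edgeR adjusted p = 0.959). Ndufaf7, a methyltransferase for a complex I subunit, had 601, 1, 2, 977, 1 and 2148 reads (log2 fold change 1.50, SE 2.82, and 8.33 without WT replicate 1). The remaining assembly factors, Ndufaf1, Ndufaf3 and Ndufaf5, reached 10 reads in Foxm1 HET replicate 3 only.

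**Figure D4:**
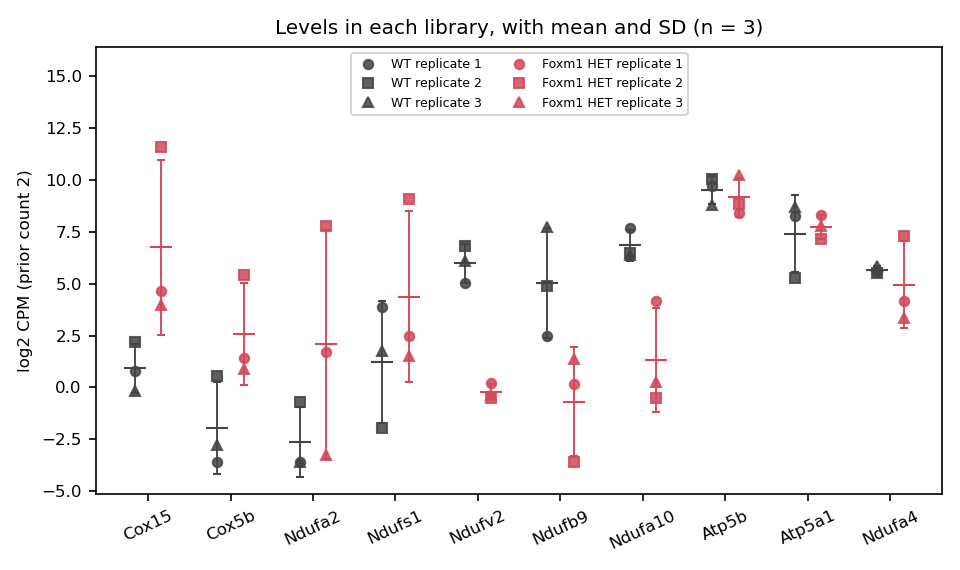
Log2 CPM (prior count 2, TMM scale) in each library for 10 genes, WT in grey and Foxm1 HET in red, with symbols for replicates, the mean as a horizontal line and the SD as a bar (n = 3). Ndufv2 is apart between the genotypes, on few reads in Foxm1 HET (41, 4 and 29). Foxm1 HET replicate 2 is the highest library for Cox15, Cox5b, Ndufa2 and Ndufs1. For Cox15 and Cox5b, Foxm1 HET replicates 1 and 3 also lie above every WT library. Atp5b and Atp5a1 overlap.

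Complex II, succinate dehydrogenase, also works in the tricarboxylic acid cycle and has no mitochondrially encoded subunit. Its flavoprotein Sdha had 860, 1194 and 766 reads (WT) against 6446, 32 and 9203 (Foxm1 HET) (log2 fold change 1.50, SE 2.02, edgeR adjusted p = 0.998). The WT libraries agreed closely, and the Foxm1 HET libraries lay on both sides of them. The iron-sulfur subunit Sdhb was near 0 in WT (2, 0 and 0 reads) against 1044, 0 and 147 in Foxm1 HET, too few libraries to test. The membrane anchor Sdhc had 1123, 54, 2, 372, 0 and 140 reads (log2 fold change -2.02, SE 2.98). Sdhd, the other anchor, had no reads in any of the 6 libraries and lies outside the normalized table.

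Complex III had 6 of its 8 genes tested, 3 on each side of 0. Cyc1, the heme-bearing cytochrome c1, had 2597, 315 and 5357 reads (WT) against 753, 4 and 51 (Foxm1 HET) (log2 fold change -4.43, SE 2.33, unadjusted p = 0.0571, edgeR adjusted p = 0.853). Foxm1 HET replicate 1 lay above WT replicate 2, so the genotypes overlapped. Uqcrh, the hinge protein that contacts cytochrome c1, had 2292, 3, 1528, 833, 3 and 1011 reads (log2 fold change -2.10, SE 2.47). Uqcrfs1, the Rieske iron-sulfur protein, had 1, 921, 1791, 666, 1 and 141 reads (log2 fold change -2.86, SE 2.75). Both were near 0 in one WT library and in Foxm1 HET replicate 2. The core protein gene Uqcrc1 (92, 1231, 97, 27, 406 and 921 reads) and the small subunit gene Uqcr10 (10, 489, 1, 488, 127 and 792 reads) were present in both genotypes, with log2 fold changes of 0.40 (SE 2.63) and 1.21 (SE 2.89).

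ATP synthase held the most abundant of the genes, and Atp5b and Atp5a1 had the smallest SEs of the 55 tested. Atp5b had 18264, 24216 and 7061 reads (WT) against 12967, 2994 and 49914 (Foxm1 HET), at a mean of 995 TPM (log2 fold change -0.23, SE 1.40, edgeR adjusted p = 0.998). Atp5a1, the alpha subunit, had 6788, 867 and 6688 reads (WT) against 11937, 926 and 9079 (Foxm1 HET) (log2 fold change -0.18, SE 1.63). Both overlapped between the genotypes, and the sign of their small differences changed with the scaling, to 0.22 and 0.38 with library size only. Of the 12 ATP synthase genes tested, 7 lay above 0 and 5 below, with a median log2 fold change of 0.31.

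Smaller ATP synthase subunits were seen in part of the libraries. Atp5d, the delta subunit of the catalytic head, had 38, 1, 2, 1310, 1 and 641 reads (log2 fold change 4.71, SE 3.42, edgeR adjusted p = 0.971), and 50.7% of its exon bases overlap another annotated gene. Atp5h, the d subunit of the peripheral stalk, had 3, 725 and 3182 reads (WT) against 204, 2 and 21 (Foxm1 HET) (log2 fold change -5.22, SE 2.86, edgeR adjusted p = 0.888). Atp5k, the e subunit, had 478 reads in WT replicate 3, 149 and 77 in Foxm1 HET replicates 1 and 3, and at most 1 elsewhere. The c subunit of the rotor ring is made from 3 genes that yield the same mature protein, and Atp5g3 was the highest of them in every library but WT replicate 2: it had 337, 0, 221, 455, 2 and 4015 reads (log2 fold change 1.90, SE 2.75), whereas Atp5g1 had at most 14 reads and Atp5g2 at most 76 in any library. Mean TPM was 114.5 for Atp5g3 (27.9 without Foxm1 HET replicate 3), 2.19 for Atp5g2 and 0.460 for Atp5g1.

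Genes with near-identical copies may lose reads where only uniquely placed reads are counted, and the counting rule is not given in the sources used here. The share of 50-base stretches, the read length used, that a transcript has in common with another locus was above 10% for 10 of the 85 genes (11.76%, against 6.193% of normalized-table genes). It was highest for Atp5g2 (36.7%), Uqcrb (25.4%), Cox7c (22.1%), Ndufs5 (21.7%) and Atp5h (19.9%). Of these 10 genes, 5 reached 10 reads in 3 or more libraries, as did 51 of the other 75. The low reads given above for Atp5g2, for Cox5b in WT (11.9%) and for Atp5g1 (11.1%) remain uncertain. The part of shared stretches in them was not tested. Among all count-table genes, 450 shared 90% or more of their stretches, and 3 of those reached 10 reads in 3 or more libraries.

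The 13 mitochondrially encoded subunits, which are known to have partial copies in the nuclear genome, differed widely in reads. Of these, mt-Co2, mt-Co3, mt-Atp6, mt-Atp8, mt-Nd3 and mt-Nd4l had 36 reads in total over the 6 libraries, and all but mt-Atp8 shared 98.0% to 100.0% of their 50-base stretches with another locus. The other 7 had between 6250 (mt-Nd6) and 1058426 (mt-Co1) reads in total. A count near 0 for the first set cannot be read as absence of the transcript. None of the 7 tested was called by edgeR (0 at an unadjusted p below 0.05) or DESeq2, with log2 fold changes from -0.75 (mt-Cytb, SE 1.20) to 0.13 (mt-Nd4, SE 1.42). Summed TPM of the mitochondrially encoded subunits was 18780, 27520, 26160, 23540, 18970 and 24190, and exceeded that of the nuclear-encoded genes 3.40-fold to 7.14-fold within a library.

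**Figure D5:**
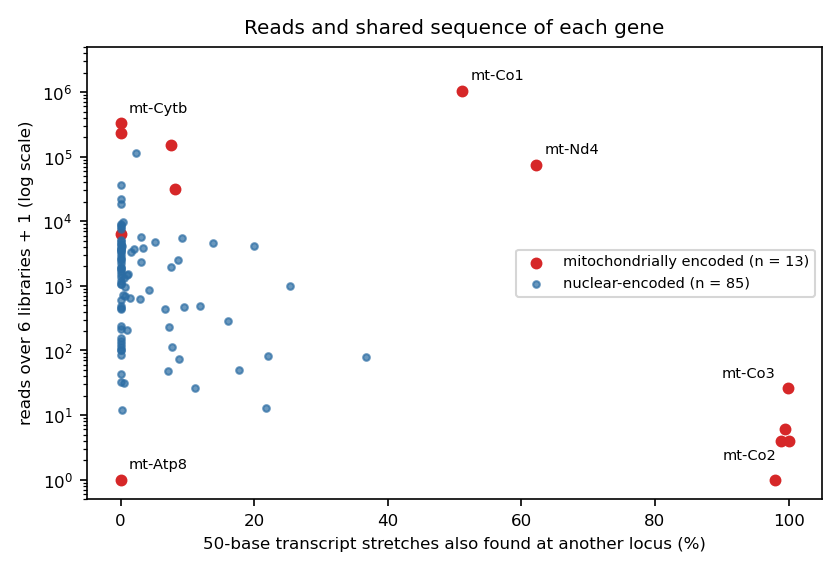
Each point is a gene, with the percentage of its 50-base transcript stretches found at another locus on the x axis and its reads summed over 6 libraries plus 1 on the y axis (log scale), in red for the 13 mitochondrially encoded and blue for the 85 nuclear-encoded genes. A group of mitochondrial genes sits at the lower right, with 98.0% to 100.0% shared and at most 25 reads, while mt-Co1 (51.1% shared) is the most counted.

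By symbol, 12 further genes of the family were in the count table but outside the normalized table, each with at most 3 reads in any library. Besides Sdhd, Cox4i2, Cox7a1 and Cox7a2 these were Cox7b2, Cox8b, Cox8c, Ndufa4l2, Ndufaf8, Ndufb4, Ndufb4c and Uqcr11. Cox8b is known as a muscle isoform and Cox8c as a testis isoform, while Ndufb4 and Uqcr11 are broadly expressed subunits that were at 0 here. Whether the low counts of these 12 genes mean absence of their transcripts was not tested. Of the 30 genes in the normalized table that were not tested, 14 reached 10 reads only in Foxm1 HET libraries, 8 only in WT and 8 in both. Over all 4014 untested genes of the normalized table the same shares were 51.9%, 20.6% and 25.7%, so more genes of either set were seen only in Foxm1 HET, where replicates 1 and 3 detected the most genes. One of the 30, the accessory subunit Ndufa7, was lower in every Foxm1 HET library on few reads (6, 4 and 18 against 2, 0 and 0). The share of untested genes with such an order was not computed.

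Related mitochondrial gene lists gave no adjusted call by edgeR or DESeq2. Of 19 tested genes for other assembly factors and electron carriers, 1 had an unadjusted p below 0.05: Sco1, a copper chaperone for complex IV, with 102, 5, 1, 136, 4189 and 269 reads (log2 fold change 7.06, SE 2.46, edgeR adjusted p = 0.314). Of 17 tricarboxylic acid cycle enzyme genes, 1 did so: Sucla2, a subunit of succinyl-CoA ligase, with 18, 287, 8, 1309, 9874 and 91 reads (log2 fold change 6.80, SE 2.07, edgeR adjusted p = 0.135). Like Cox15, both were highest in Foxm1 HET replicate 2. Of 12 regulators of mitochondrial biogenesis none did so. The smallest p in that list belonged to Polg2, the accessory subunit of the mitochondrial DNA polymerase, with 270, 2611, 1174, 176, 0 and 31 reads (log2 fold change -5.21, SE 2.95, edgeR adjusted p = 0.904). Tfam, which packages mitochondrial DNA, had 36, 2089, 0, 11, 0 and 131 reads.

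Markers of other blood cells moved between these libraries too. A list of 15 genes used to describe LT-HSCs also holds Cd48, Cd34 and Flt3, which are not positive LT-HSC markers. Of these 15 genes, 13 were tested and none was called by edgeR or DESeq2. By edgeR, 1 had an unadjusted p below 0.05 (Mecom, 910, 4431, 60, 1393, 21758 and 9561 reads). Cd48, which the sort selects against, had 221, 6608, 1, 1285, 5 and 22 reads. Markers that the sort selects for varied as well. Slamf1 (CD150) had 2, 1572, 0, 8, 0 and 543 reads, and Ly6a (Sca-1) had 125, 4, 2, 2261, 2 and 1597. Kit (c-Kit) had 10720, 41801, 14991, 30282, 18773 and 48031. The 10 neutrophil markers summed to 22330, 16100 and 35730 TPM (WT) against 18550, 14490 and 3559 (Foxm1 HET), and macrophage markers to 7810, 3804, 6975, 7690, 1232 and 1686. Lyz2 alone held 7630, 3796, 6805, 7530, 1164 and 1683 TPM of the macrophage sums, which thus describe mostly this gene. In the same list C1qa and C1qb had no reads, while Cd68 and Csf1r had reads in both genotypes. By edgeR, 4 of the 10 neutrophil markers had a log2 fold change above 0 and 6 below. Among those above 0, Prtn3, a granule protease, was higher in every Foxm1 HET library (13, 71, 2, 1197, 365 and 5247 reads), and DESeq2 but not edgeR called it. Erythroid markers summed to 134 to 782 TPM in WT and 48.9 to 257 in Foxm1 HET. B cell, T and NK cell and megakaryocyte markers summed to at most 165 TPM in any library. In the megakaryocyte list, Gp5 had 0, 1, 0, 116, 8 and 699 reads (log2 fold change 8.42, SE 4.07, edgeR adjusted p = 0.773), and DESeq2 called it. The part of all these markers in the values of the respiratory genes was not tested.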

How the data were processed

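LT-HSC RNA-Seq from 3 WT and 3 Foxm1 HET mice was analysed. Files deposited by the authors hold counts for 27179 genes, not normalized, with lengths. A second deposited table holds log2 values, normalized by the authors, for 12179 of them. Single 50 bp reads had been aligned to GRCm38 with STAR 2.7.2b. The counting program, strand and handling of multiply placed reads are not given in the sources used here. The study's methods name a Clontech kit, whereas the labels describe Ribo-Zero depletion and a stranded total RNA kit, so reads of overlapping genes cannot be told apart. Samples were grouped by labelled genotype, all columns matched a sample by name, and libraries came from separate mice.

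Counts were tested with edgeR 4.0.16 in R 4.3.3 (filterByExpr with a minimum count of 10, TMM, quasi-likelihood test, Benjamini-Hochberg over 8195 genes, threshold 0.05). Standard errors were taken as the absolute log2 fold change over the root of the F statistic. DESeq2 1.42.0 and limma 3.58.1 were alternatives. The script was tested on simulated data. Library totals were 14573002 to 25798509 reads, and the biological coefficient of variation was 1.66. Shared 50-base stretches were computed from GENCODE vM21 transcripts.

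Genes named were, per complex, the 3 with the highest mean TPM and the 2 with the smallest p in each direction, all with an unadjusted p below 0.05 or without overlap, and isoform families. Ndufaf1, Ndufaf3, Ndufaf5 and the genes of low counts were added after their values were seen. One gene is not reported here and is left out of the plots that name genes, but is included in the counts over genes. The members and lists were chosen with earlier results of these data known.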

Additional observations from a re-analysis of the deposited data

How the results depend on the processing

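Counts of called genes depended on the settings. The main edgeR result was 27 genes over all genes, 1 of them Cox15. RLE gave 10 genes and 0 of the respiratory genes, library size only 7 and 0, at least 10 counts in every library 0 and 0 (157 genes at an unadjusted p below 0.05), limma-voom 4 and 0, limma on the normalized values 1 and 0, and limma on log2(CPM + 1) and on log2(CPM + 0.1) 0 and 0. Upper-quartile scaling called 43 genes and DESeq2 194, with 1 and 2 respiratory genes. No filter on low counts gave 36 and 1. Leaving out 1 library gave 0 to 29 genes and 0 to 1 respiratory genes; WT replicates 1, 2 and 3 and Foxm1 HET replicate 2 each removed the call of Cox15, whose log2 fold change ranged from 3.20 to 9.73. Over the same settings the adjusted p of Cox15 ran from 0.00336 (upper-quartile) to 1.

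The study collected BM from 3 pairs of mice, but no label ties a replicate number to a pair, and deviations of same-numbered libraries correlated at 0.0162, -0.0253 and -0.0687. With the replicate block, 0 genes (108 at an unadjusted p below 0.05) and 0 respiratory genes were called, and Cox15 had a log2 fold change of 5.49 (edgeR adjusted p = 1).

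Signs of small differences reversed as follows. With library size only, log2 fold changes were -0.31 (Ndufa4), 0.22 (Atp5b), 0.23 (Cox7a2l) and 0.38 (Atp5a1); with upper-quartile scaling, 0.16 (Atp5b) and 0.23 (Atp5a1); with at least 10 counts in every library, -0.12 (Ndufa4), 0.0054 (Atp5b) and 0.074 (Atp5a1). With the replicate block they were -0.088 (Uqcrc1), -0.14 (Cox6a1), -0.84 (Ndufa4), 0.30 (Atp5a1), 3.34 (Atp5k) and 3.69 (Cox6b2); with limma-voom, -0.61 (Uqcrc1), -1.33 (Ndufa4), 0.59 (Atp5a1), 0.63 (Cox6b2) and 1.57 (Atp5k). On the normalized table they were -0.12 (Uqcrc1), -0.62 (Ndufa4), 0.029 (Atp5b), 0.23 (Cox7a2l), 0.24 (Cox6b2), 1.002 (Atp5a1) and 1.07 (Atp5k); on log2(CPM + 1), -0.67 (Ndufa4) and 0.32 (Atp5a1); on log2(CPM + 0.1), -0.12 (Uqcrc1), -0.17 (Cox6a1), -0.71 (Ndufa4), 0.33 (Atp5a1) and 0.73 (Atp5k).
Leaving out 1 library in turn, ranges that held both signs were -0.72 to 0.34 (Atp5a1), -0.94 to 0.18 (Atp5b), -0.52 to 2.56 (Atp5g3), -3.14 to 6.15 (Atp5k), -1.15 to 4.25 (Cox4i1), -6.83 to 6.63 (Cox6b2), -4.72 to 0.34 (Cox6c), -0.98 to 0.34 (Cox7a2l), -1.79 to 0.76 (Ndufa4), -0.47 to 6.65 (Ndufs1), -3.23 to 1.90 (Sdhc) and -0.90 to 2.46 (Uqcrc1). The median log2 fold change of the tested genes stayed within the spread between libraries (1.67), from -0.34 to 0.56, and took either sign, as did that of all genes. The cause of these changes was not tested.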
